A study of Homo sapiens with 5 samples.

Results

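The comparison concerned the genomic sites that an antibody from Millipore recovered at basal and at increased dosage of steroidogenic factor-1 (SF-1), the transcription factor encoded by NR5A1. Sites were mapped by ChIP-seq, in which chromatin bound by the antibody is sequenced. The cells, H295R/TR SF-1, derive from the established human adrenocortical tumour line H295R, and doxycycline switches on extra SF-1 in them. Cells of the basal group grew without doxycycline, and cells of the overexpressed group received it for 3 days before fixation. All groups carried the same inducible transgene, so that effects of the agent and of the dosage cannot be told apart, and all came from a single subclone. The authors pooled 3 libraries a group and called 1 list of peaks on each pool. The Millipore lists held 4393 basal and 11910 overexpressed peaks, which is 16303 of the 30372 peaks in the 4 lists of the series. The other lists, from an antibody of Perseus Proteomics, held 6616 basal and 7453 overexpressed peaks, so that their lengths differed far less between dosages. They were used only as a further readout of the same dosages.

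A basal peak that overlapped an overexpressed peak by 1 bp or more was called kept, and any other basal peak lost. An overexpressed peak without such an overlap was called gained. Each peak was assigned to the protein-coding gene with the nearest transcription start site (TSS), with distances taken between the middle of the peak and the outermost start of the gene. Negative distances are upstream of the TSS and positive ones downstream. Because the overexpressed list was longer, the numbers of kept, gained and lost sites, the features of the sites and the gene counts were obtained with all peaks and again with the 4393 best-ranked overexpressed peaks (lists of equal length). Divisions by GC content, rank and distance, and the flanking windows, used all peaks only. With 1 pooled list a side there was no replicate error and no test between dosages. Shares carry 95% Wilson intervals and differences between shares carry Newcombe intervals, which cover counting error over peaks only, and the read depth behind either list is unknown.

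SF-1 is a nuclear receptor that binds DNA as a monomer at an extended site, CAAGGTCA, and controls the genes for steroid hormone synthesis and for adrenal and gonadal development. Cholesterol is delivered to the mitochondria by STAR and cut by CYP11A1, and further enzymes make cortisol, aldosterone and androgens from the product. The neuron-restrictive silencer factor (NRSF, also called REST) binds a different and longer sequence, RE1, and keeps neuronal genes silent outside neurons.

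The sequences of 4 kept sites show examples of both motifs and not how often each occurred. The sites at NPAS4, SMIM17 and PNPLA1 were among the best-ranked kept sites, and the CYP11A1 site was chosen by gene. All sequences were read from GRCh37, the hg19 build of the peak lists, on the plus strand. Capitals mark every complete copy in the printed window of either an RE1-like sequence (TTCAGCACC, any 2 bases, then GGACAGCGC, with at most 4 mismatches at the 18 fixed positions) or the SF-1 sequence CAAGGTCA, on either strand. The NPAS4 site lay at chr11:66189274-66189423, the SMIM17 site at chr19:57149424-57149573, the PNPLA1 site at chr6:36207622-36207771 and the CYP11A1 site at chr15:74619266-74619415.
NPAS4, kept, RE1-like sequences in capitals: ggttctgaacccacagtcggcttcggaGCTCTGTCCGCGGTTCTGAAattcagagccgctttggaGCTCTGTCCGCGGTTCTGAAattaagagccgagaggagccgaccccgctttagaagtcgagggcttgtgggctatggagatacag
SMIM17, kept, RE1-like sequences in capitals: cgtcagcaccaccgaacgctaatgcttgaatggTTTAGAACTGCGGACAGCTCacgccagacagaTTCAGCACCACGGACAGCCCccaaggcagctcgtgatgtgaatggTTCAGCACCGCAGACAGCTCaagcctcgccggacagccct
PNPLA1, kept, SF-1 sequence in capitals: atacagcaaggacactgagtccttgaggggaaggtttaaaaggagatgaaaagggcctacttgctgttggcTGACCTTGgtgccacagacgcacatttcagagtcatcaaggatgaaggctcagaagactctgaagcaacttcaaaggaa
CYP11A1, kept, SF-1 sequence in capitals: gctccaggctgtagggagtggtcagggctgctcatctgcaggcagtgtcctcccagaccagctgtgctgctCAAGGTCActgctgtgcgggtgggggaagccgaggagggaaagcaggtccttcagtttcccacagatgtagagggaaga

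The next sequences belong to gained sites, and they are shown because the best-ranked of them within 100 kb of a TSS held neither motif while the CUX1 site held the SF-1 sequence more than once. The ENSG00000290147 site lay at chr6:42124575-42124724, the CUX1 site at chr7:101554754-101554903 and the CYP11A1 site at chr15:74665625-74665774.
ENSG00000290147, gained, no motif: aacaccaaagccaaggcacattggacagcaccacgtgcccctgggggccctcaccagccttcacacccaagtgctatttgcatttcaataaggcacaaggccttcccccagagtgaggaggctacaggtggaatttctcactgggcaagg
CUX1, gained, SF-1 sequences in capitals: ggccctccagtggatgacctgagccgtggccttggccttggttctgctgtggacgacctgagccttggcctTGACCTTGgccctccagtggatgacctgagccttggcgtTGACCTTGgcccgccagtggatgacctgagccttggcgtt
CYP11A1, gained, no motif: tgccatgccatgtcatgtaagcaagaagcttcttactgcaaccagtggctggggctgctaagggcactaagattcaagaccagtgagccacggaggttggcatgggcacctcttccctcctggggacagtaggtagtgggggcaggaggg

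Lost sites are shown by the best-ranked of the class within 100 kb of a TSS, at GABBR2, by a site with the SF-1 sequence in an intron of COX17, and by the lost site upstream of NR5A1 itself. They lay at chr9:101434825-101434974, chr3:119394927-119395076 and chr9:127270575-127270724.
GABBR2, lost, no motif: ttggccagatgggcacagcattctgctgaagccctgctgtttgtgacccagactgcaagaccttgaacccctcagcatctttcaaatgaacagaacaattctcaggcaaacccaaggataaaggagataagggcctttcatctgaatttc
COX17, lost, SF-1 sequence in capitals: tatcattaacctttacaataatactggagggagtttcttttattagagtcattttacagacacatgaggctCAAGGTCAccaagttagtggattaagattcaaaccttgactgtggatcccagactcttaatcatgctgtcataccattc
NR5A1, lost, no motif: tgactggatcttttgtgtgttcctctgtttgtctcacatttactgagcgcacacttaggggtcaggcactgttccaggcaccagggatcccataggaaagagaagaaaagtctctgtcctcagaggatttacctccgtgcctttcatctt

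Few sites were found at both dosages. Of the 4393 basal peaks, 544 were kept (12.4%, 11.4 to 13.4%) and 3849 were lost. Of the 11910 overexpressed peaks, 540 were kept (4.53%, 4.17 to 4.92%) and 11370 were gained. In lists of equal length 352 basal peaks were kept (8.01%, 7.25 to 8.85%), 4041 were lost and 4045 were gained, so that gains and losses were then almost equal in number. Lost sites were rarely shifted peaks, since 2.13% of them had an overexpressed peak within 500 bp and 3.48% within 1 kb. The median gap from a lost peak to the nearest overexpressed peak was 86.8 kb.

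Kept sites were concentrated among the best ranks of both lists. When each list was divided by rank into 10 parts, 38.3% (33.8 to 42.9%) of the first part of the basal list was kept and 13.4% (10.6 to 16.9%) of the second, against 6.14% (4.25 to 8.78%) of the last. In the overexpressed list the share fell from 16.5% (14.5 to 18.7%) to 2.35% (1.63 to 3.38%). Even so, 34 of the 100 best basal peaks were lost and 48 of the 100 best overexpressed peaks were gained.

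**Figure D1:**
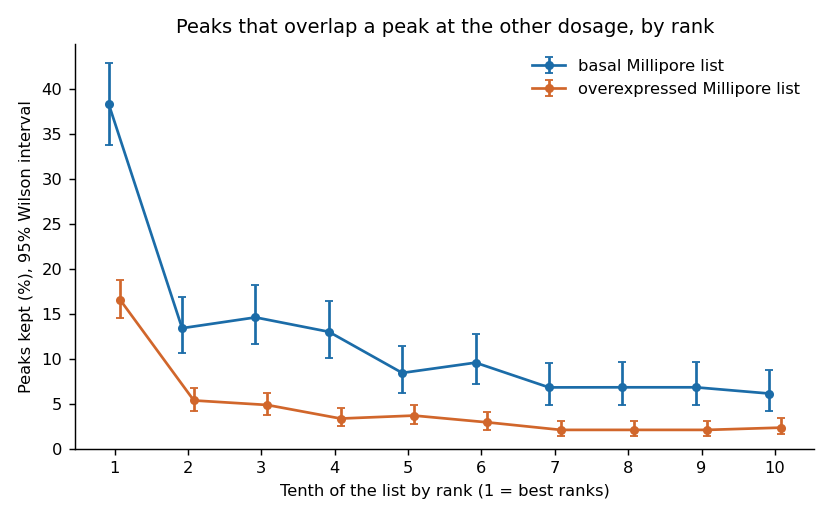
Share of peaks that overlap a peak at the other dosage (vertical axis, percent, with 95% Wilson intervals) against rank, with each Millipore list divided into 10 parts from best to worst (horizontal axis). The basal share falls from 38.3% in the first part to 6.14% in the last, and the overexpressed share from 16.5% to 2.35%.

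A site could change its rank greatly between dosages. Over the 544 kept basal peaks the median basal rank was 1176.5 and the median rank of the best overlapping overexpressed peak was 2522.5, with a Spearman correlation of 0.376, given as a description because the lists differ in length. For 192 kept peaks the overexpressed partner ranked below 4393, and 27 ranked within 100 in both lists. The basal peak of rank 1, at chr9:128844901-128845349 at -243983 bp from the nearest gene MVB12B, held an RE1-like sequence and had rank 3 at overexpressed dosage. The overexpressed peak of rank 1, at chr1:156186201-156186799 in an intron of PMF1, overlapped a basal peak of rank 1386 and peaks of both Perseus lists, and it held neither motif.

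**Figure D2:**
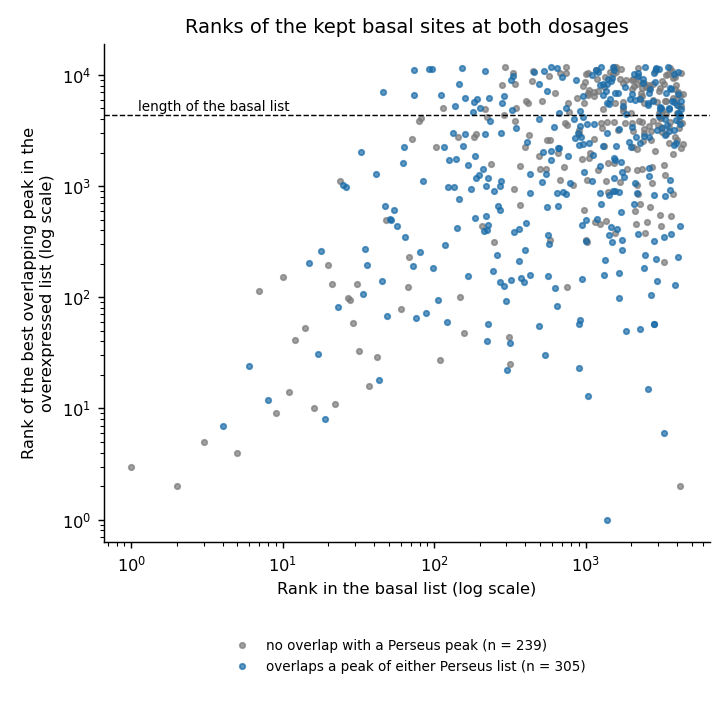
Rank in the basal list (horizontal axis, log scale) and rank of the best overlapping overexpressed peak (vertical axis, log scale) for the 544 kept basal sites. Blue points, 305 sites, overlap a peak of either Perseus list, grey points, 239 sites, do not, and the 192 points above the dashed line have a partner ranked below the length of the basal list.

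The SF-1 sequence was more frequent at kept sites than at lost or gained sites. CAAGGTCA was present in 29.2% (25.6 to 33.2%) of kept basal peaks, 8.91% (8.05 to 9.85%) of lost peaks and 5.27% (4.87 to 5.69%) of gained peaks. In windows of the same width 5 kb to each side the shares were 1.47%, 0.922% and 1.43%, so that the peaks exceeded their surroundings 19.9-fold, 9.66-fold and 3.69-fold. Kept peaks exceeded lost peaks by 20.3 percentage points (16.5 to 24.4), and kept overexpressed peaks exceeded gained peaks by 24.7 points (21 to 28.7). Gained peaks held the sequence less often than lost peaks, by -3.64 points (-4.66 to -2.68). The equal-length lists gave shares of 28.4%, 9.95% and 7.42%. The order of gained and lost sites depended on the letters, since CAAGGNCA gave a difference of -0.505 points (-1.85 to 0.794) with all peaks and 3.62 points (1.91 to 5.32) at equal length, where it was in 20.8% of gained and 17.2% of lost peaks. Seen from the sequence, 31.7% (27.8 to 35.9%) of the 502 basal peaks with it were kept, against 9.89% (9 to 10.9%) of the 3891 without it. Kept peaks were also wider, since 33.3% of kept basal, 9.43% of lost and 20.9% of gained peaks spanned 200 bp or more, and each window had the width of its peak.

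Within both changing classes the sequence followed rank. It was in 10.1% (8.33 to 12.1%) of gained peaks in the first of 10 parts of the overexpressed list and in 2.67% (1.88 to 3.76%) of those in the last. Among lost peaks it was in 25.1% (20.3 to 30.6%) of the first part of the basal list and 6.78% (4.73 to 9.62%) of the last. Kept basal peaks held it in 30.4% (23.9 to 37.7%) of the first part and 18.5% (8.18 to 36.7%) of the last. Of the 100 best-ranked sites of each class, 28 kept, 33 lost and 11 gained sites held it, so that kept sites did not exceed lost sites there.

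RE1-like sequences were rare, and in the basal list most of them were at kept sites. Of the 55 basal peaks with one, 45 were kept (81.8%, 69.7 to 89.8%). They made up 8.27% (6.24 to 10.9%) of kept basal peaks, against 0.26% (0.141 to 0.478%) of lost and 0.554% (0.433 to 0.708%) of gained peaks, and 0.276%, 0.0779% and 0.273% of the windows beside them. Among the 100 kept sites with the best ranks, 32 held an RE1-like sequence, compared with 0 of the 100 best lost and 4 of the 100 best gained sites. Only 2 basal peaks held both an RE1-like sequence and CAAGGTCA, and both were kept.

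The 8 kept sites with the best worst rank within 100 kb of a TSS followed this division. Those nearest to NPAS4, SMIM17, FEM1A, LIN28A, NKX1-1, FAM24A and PNPLA6 all held an RE1-like sequence with 0 to 3 mismatches, and none of them held CAAGGTCA. NPAS4 encodes an activity-dependent neuronal transcription factor and LIN28A an RNA-binding protein of stem cells. The NPAS4 site at 769 bp, printed above, had rank 2 in both lists. It overlapped no Perseus peak, and neither did the sites at SMIM17, LIN28A, FAM24A and PNPLA6. The FEM1A site overlapped an overexpressed Perseus peak only and the NKX1-1 site a basal one only. The only one of the 8 without an RE1-like sequence was the site at -3255 bp of PNPLA1, of basal rank 19 and overexpressed rank 8. It held the SF-1 sequence and overlapped peaks of both Perseus lists.

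Of the 8 best-ranked gained sites within 100 kb of a TSS, those reported here were nearest to ENSG00000290147, ANKRD30BL, ZRANB1, CUX1, SPRR1A, TAF1B and OR10AD1, with ranks from 17 to 36. None of them held an RE1-like sequence and, apart from the one at CUX1, none held CAAGGTCA. The site at ANKRD30BL lay at 267 bp and had a GC content of 67%. The sites at ANKRD30BL, ZRANB1, CUX1 and OR10AD1 overlapped peaks of both Perseus lists, basal included. The 8 best-ranked lost sites within the same distance were nearest to GABBR2, CDC16, GGTA1, COX17, MKLN1, IMPDH2, LSAMP and IFFO2, with ranks from 30 to 65. Those at COX17, MKLN1 and IMPDH2 held CAAGGTCA and none held an RE1-like sequence. Their GC content ran from 33.4% at LSAMP to 49% at CDC16, and the sites at GABBR2, COX17, MKLN1, IMPDH2 and LSAMP overlapped a basal Perseus peak. Those at GABBR2, IMPDH2 and LSAMP overlapped an overexpressed Perseus peak as well.

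Kept and gained sites were close to each other in GC content and position, whereas lost sites differed from both. Mean GC content was 54.7% in kept basal peaks, 55.4% in gained peaks and 45.3% in lost peaks, against 46.6%, 46.4% and 41.5% in the windows 5 kb away. A GC content of 60% or more was found in 30% (26.3 to 33.9%) of kept, 31.2% (30.3 to 32%) of gained and 5.61% (4.93 to 6.38%) of lost peaks. The GC box GGGCGG was in 12.5% of kept basal, 12.3% of gained and 2.21% of lost peaks, and in 17% of kept overexpressed peaks, which exceeded gained peaks by 4.69 points (1.69 to 8.14). In contrast, the pentamer CCAAT differed little between kept and lost peaks, at 21.7% and 21.4%, and was in 17.7% of gained peaks.

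The share of basal peaks that were kept rose steeply with their GC content. It was 1.66% (1.07 to 2.58%) of the 1142 peaks under 40% GC, 8.55% (7.34 to 9.94%) of those from 40 to 50%, 19.2% (17 to 21.6%) of those from 50 to 60% and 43% (38.1 to 48%) of the 379 peaks with 60% or more. No such rise was seen in the overexpressed list, where the kept share lay between 2.76% and 5% in all 4 strata. The overexpressed list itself was poor in low-GC peaks, with 4.57% of its peaks under 40% GC compared with 26% of the basal list. Base composition thus moved with dosage across the whole lists, and its part in the kept, gained and lost sites was not tested.

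**Figure D3:**
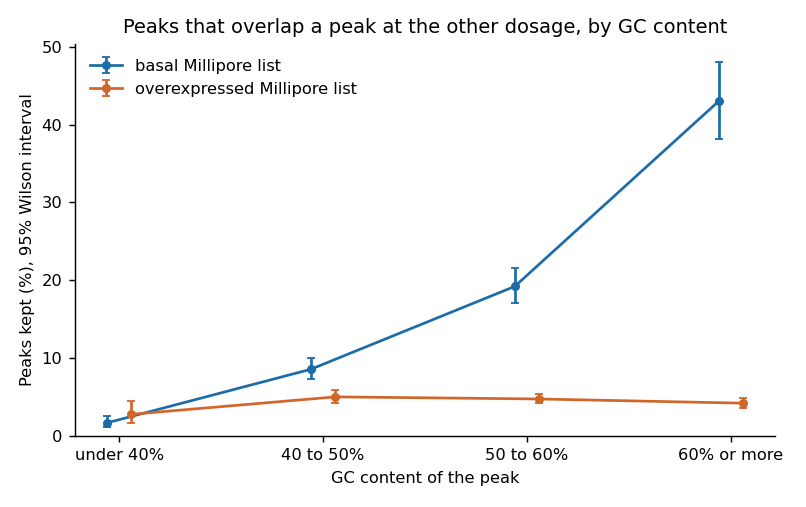
Share of peaks that overlap a peak at the other dosage (vertical axis, percent, with 95% Wilson intervals) in 4 strata of the GC content of the peak (horizontal axis), for the basal and the overexpressed Millipore list. The basal share rises from 1.66% to 43%, and the overexpressed share stays between 2.76% and 5%.

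Lost sites lay farther from genes. Within 1 kb of a TSS were 10.7% (8.34 to 13.5%) of kept basal, 3.27% (2.76 to 3.88%) of lost and 12.7% (12.1 to 13.4%) of gained peaks. Gained peaks exceeded lost peaks there by 9.45 points (8.6 to 10.3), whereas kept overexpressed and gained peaks differed by -2.17 points (-4.57 to 0.767), an interval that includes no difference. More than 100 kb from any TSS were 22.4% of kept, 42.1% of lost and 24.6% of gained peaks. The median distance was 27075 bp for kept basal, 71131 bp for lost and 29262 bp for gained peaks. Introns of protein-coding genes held similar shares of the 3 classes, from 43.6% to 45.8%, and coding exons held 4.78% of kept, 2.26% of lost and 6.59% of gained peaks.

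Gained promoter sites were recovered by the second antibody more often than gained distal sites, while the SF-1 sequence was no more frequent in them. Of the 1447 gained peaks within 1 kb of a TSS, 34.1% (31.7 to 36.6%) overlapped a peak of either Perseus list, compared with 6.6% (5.74 to 7.58%) of the 2802 gained peaks beyond 100 kb. CAAGGTCA was in 3.25% (2.45 to 4.29%) of the former and 4.85% (4.12 to 5.71%) of the latter. Of the gained peaks within 1 kb, 25.9% overlapped an overexpressed and 22.7% a basal Perseus peak. Many of those recovered were thus found at basal dosage by the second antibody. Beyond 100 kb the shares were 5.32% and 2.53%. Lost peaks showed a fall with distance in both measures, from 19.8% to 5.98% for the Perseus lists and from 13.5% to 6.23% for the SF-1 sequence.

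**Figure D4:**
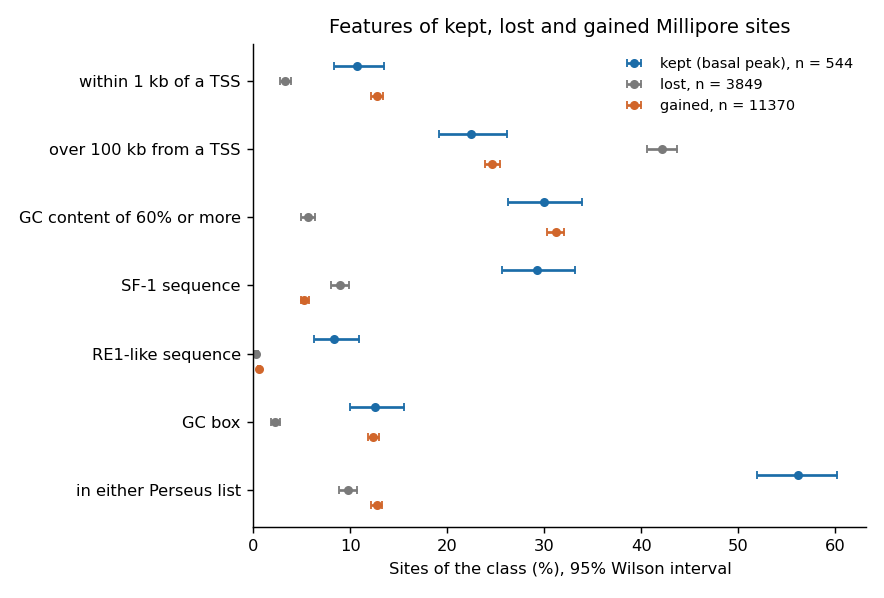
Share of kept basal, lost and gained Millipore sites (horizontal axis, percent, points with 95% Wilson intervals) with each of 7 features (vertical axis). Kept and gained sites are close in position and GC content, at 10.7% and 12.7% within 1 kb of a TSS and 30% and 31.2% with a GC content of 60% or more, while kept sites stand apart from both others in the SF-1 sequence, at 29.2%, and in the overlap with either Perseus list, at 56.1%.

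The second antibody recovered kept sites far more often than sites of one dosage. Of the kept basal peaks 56.1% (51.9 to 60.2%) overlapped a peak of either Perseus list, compared with 9.74% (8.85 to 10.7%) of lost and 12.7% (12.1 to 13.3%) of gained peaks, differences of 46.3 points (42 to 50.5) from lost and, for the kept overexpressed peaks, 43.1 points (38.8 to 47.3) from gained. The contrast was smaller in ratio among the best ranks. In the first of 10 parts of the basal list the shares were 65.5% of kept and 32.1% of lost peaks. The first part of the overexpressed list gave 67.9% of kept and 34.5% of gained peaks. Among the 100 best-ranked sites of each class, 65 kept, 45 lost and 67 gained sites overlapped a Perseus peak. Kept sites thus did not exceed gained sites there. In the opposite direction, 60.1% (54.3 to 65.7%) of the 276 basal peaks found in both Perseus lists were kept, against 6.44% (5.69 to 7.27%) of the 3713 found in neither.

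Where only 1 of the Perseus lists held a site, its dosage tended to match. Of the 997 gained peaks found in a single Perseus list, 693 were in the overexpressed one, or 69.5% (66.6 to 72.3%). Of the 265 such lost peaks, 164 were in the basal list, which left an overexpressed share of 38.1% (32.5 to 44.1%). Kept basal peaks were divided evenly, with 69 and 70. Over the Perseus peaks themselves, 5500 of 10167 peaks without a partner at the other dosage belonged to the overexpressed list, or 54.1%. The direction was the same in lists of equal length, at 74.5% for gained and 39.9% for lost peaks. A further 442 gained peaks and 110 lost peaks were found in the Perseus lists of both dosages.

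At the level of genes, basal and overexpressed sites met more often than at the level of positions. The assignment itself favours this, since a gene takes all peaks in the stretch nearest to its TSS (median 59.3 kb). Of 20163 protein-coding genes, 514 kept a site (2.55%), 1468 had sites of both lists of which none overlapped (7.28%), 4753 had overexpressed sites only (23.6%) and 1154 had basal sites only (5.72%). These percentages are the background for every gene list below. Cutting the overexpressed list to equal length made them 1.65% for kept, 4.14% for both without overlap, 10.1% for overexpressed only and 9.77% for basal only. Genes that kept a site or had sites of both lists numbered 1982, set against 3135 genes with a basal site (63.2%, 61.5 to 64.9%). Those that kept a site numbered 514 (16.4%, 15.1 to 17.7%). The equal-length lists gave 37.2% and 10.6%. Among all genes, 33.4% had an overexpressed site, or 15.8% at equal length.

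Gained sites were mostly nearest to genes without a basal site. Of the gained peaks, 7249 (63.8%) were nearest to a gene without a basal site and 4121 (36.2%) to a gene with one. Genes with a basal site made up 15.5% of all protein-coding genes. This share of genes gives no expectation for peaks, since a gene with a longer stretch takes more peaks of either list. A lone gained site was seen at 4049 genes, and 262 genes had 5 or more. Loss was likewise mostly a matter of lone sites, with 2121 genes that lost exactly 1 and 39 that lost 5 or more.

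In the Millipore lists, promoters showed a clear gain at the gene level. Of the gained peaks within 1 kb of a TSS, however, 22.7% overlapped a basal Perseus peak. A basal site lay within 1 kb of the TSS of 182 genes (0.903%, 0.781 to 1.04%) and an overexpressed site within 1 kb of 1431 genes (7.1%, 6.75 to 7.46%). Both dosages placed a site there at 66 genes, and at 58 of these the peaks overlapped. Of the 1365 genes with a promoter site at overexpressed dosage only, 252 (18.5%) had a basal site elsewhere. In lists of equal length the overexpressed number was 566 genes (2.81%, 2.59 to 3.04%), still above the basal number.

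Steroid hormone synthesis had sites at a minority of its 24 genes, a share near that of all protein-coding genes, and more sites were gained than lost. A site was kept at 2 genes and sites of both lists without overlap were found at 2. Overexpressed sites only were found at 4 (16.7%, beside 23.6% of all genes) and basal sites only at 1. The other 15 genes had none (62.5%, beside 60.9% of all genes). Sites rose from 6 to 21, or from 2.48 to 8.67 per Mb of the stretch nearest to the genes' starts, a ratio of 3.5 compared with 2.71 for all protein-coding genes. The equal-length lists gave ratios of 2.5 and 1. With sites limited to 100 kb of a TSS the ratio was 3.33, beside 3.39 for all genes. A high density was not particular to this list. For 36 housekeeping genes it went from 3.91 to 12.8 sites per Mb. At equal length the overexpressed density was 5.58 per Mb for housekeeping and 6.19 for steroid genes.

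CYP11A1, which makes the first cut of cholesterol, held the kept site printed above, at 40712 bp, with basal rank 41 and overexpressed rank 1283. This site held the SF-1 sequence and overlapped peaks of both Perseus lists. Another 5 sites were gained there, among them one at 187 bp with rank 3883 and the one printed above at -5713 bp with rank 1308. STAR, the mitochondrial cholesterol carrier, kept a site at -3190 bp (basal rank 343, overexpressed rank 3839) and lost one at 6410 bp (rank 3476). At POR, the electron donor of the microsomal steroid hydroxylases, there was no basal site and 4 gained ones, of which the best, at -2168 bp with rank 280, overlapped peaks of both Perseus lists. CYP11B2, the aldosterone synthase gene, gained a site at -6141 bp that held CAAGGTCA, had rank 2096 and overlapped a basal Perseus peak. HSD11B2, which inactivates cortisol, gained 3 sites, one of them at -955 bp with CAAGGTCA and rank 1618, and lost 1. AKR1C3, a ketosteroid reductase, had the only basal-only site, at rank 495. Neither CYP17A1, CYP21A2, HSD3B2, CYP11B1, FDX1 nor SULT2A1 was the nearest gene of a site in either list.

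Genes of cholesterol supply gained sites at a still larger number of members. Of 30 genes, 3 kept a site, 2 had both without overlap, 13 had overexpressed sites only and 1 had basal sites only, with 7 basal and 34 overexpressed sites (ratio 4.86, or 1.86 with equal length and 4.43 within 100 kb). SCARB1, the receptor that takes up high-density lipoprotein cholesterol, was among the genes that kept one, in an intron (ranks 2306 and 6921) and gained a site over a coding exon that held CAAGGTCA at rank 1635. ABCA1, which exports cholesterol, gained 4 sites and INSIG1, a brake on its synthesis, gained 5. Gained promoter sites were found at LSS, SREBF1, HMGCS1 and STARD4, with ranks from 6626 to 11183, none of them among the 4393 best.

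Signalling from the adrenocorticotropic hormone (ACTH) receptor through cAMP had 10 basal and 27 overexpressed sites for 29 genes, a ratio of 2.7 beside 2.71 for all genes, or 1.1 with equal length. Within 100 kb the ratio was 5.25, from 4 and 21 sites, so that it was near the background only without a distance limit. ATF1 was the only gene that kept a site, at 57 bp with CAAGGTCA (ranks 2903 and 11348). Overexpressed sites alone were found at 12 genes, among them GNAS, the stimulatory G protein subunit, and the phosphodiesterase PDE8B, whose site lay at -824 bp. MC2R, the ACTH receptor, had a lone basal site of rank 4112 that was lost. Of 31 genes of angiotensin and potassium control of aldosterone, 3 kept a site (ATP2B3, CACNA1H and ITPR2), 5 had both without overlap, 11 had overexpressed sites only and 4 basal sites only, a ratio of 2.25 that became 0.812 with equal length and 2.55 within 100 kb. KCNJ5, a potassium channel gene mutated in aldosterone-producing adenomas, had 1 overexpressed site and no basal site.

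Among SF-1, its relatives and the regulators of adrenal and gonadal development, 24 of the 32 genes had a site, while 60.9% of all genes had none. The median stretch nearest to each of these genes was 178 kb, compared with 59.3 kb for all genes, and the densities of 1.81 basal and 4.64 overexpressed sites per Mb were near the 1.54 and 4.17 of all genes. Within 100 kb the list had 6 basal and 34 overexpressed sites, a ratio of 5.67. Without that limit a site was kept at 4 genes, CITED2, DLK1, GATA6 and NR0B2, while 6 had both without overlap, 11 overexpressed sites only and 3 basal sites only. With the limit, 2 genes kept a site, 2 had both without overlap, 15 overexpressed sites only and 1 basal sites only. NR0B2, the nuclear receptor SHP, kept a site close to its TSS that rose from basal rank 908 to overexpressed rank 23. DLK1 kept a site at -14542 bp whose rank went from 2979 to 139, and 5 more were gained around it. NR5A1 itself lost the site at -951 bp, of basal rank 795 and printed above, and gained 4, of which the nearest lay at 524 bp with rank 7317. None of its 5 sites held CAAGGTCA or overlapped a Perseus peak. NR2F1 lost all 3 of its sites, and SHH, a ligand made beneath the adrenal capsule, went from 1 to 8 sites.

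With all peaks, other groups of genes gained more sites than they lost, and their relation to the background varied. For 31 Notch genes sites rose from 6 to 32 (ratio 5.33, or 2.83 with equal length and 7 within 100 kb), with NOTCH1 going from 1 to 7. For 39 genes of the TGF-beta and BMP pathways the ratio was 2.33 (0.917 with equal length), for 34 angiogenesis genes 2.75 (1.25), for 25 adrenocortical tumour genes 1.85 (0.923) and for 20 gonadal hormone and receptor genes 2.12 (0.625), and no site was kept in any of these 4 groups. The distance limit of 100 kb moved these ratios to 5.83 for TGF-beta and BMP, 4 for angiogenesis, 2.11 for tumour genes and 11 for gonadal genes, the last from 1 basal site, beside 3.39 for all genes, so that TGF-beta and BMP genes and gonadal genes moved from below to above the background. VEGFA gained 5 sites and KDR, a receptor for its product, lost 2. Cell death genes, 37 in number, kept a site at BID alone and had a ratio of 3.17 (1.17 with equal length and 2.33 within 100 kb). The 26 SF-1 cofactor genes went from 5 to 30 sites, a ratio of 6 that became 1.8 with equal length, from 9 overexpressed sites, and 10.5 within 100 kb. Of the 15 genes that the study followed against dosage, none kept a site, 3 had both without overlap, 4 overexpressed sites only and 1 basal sites only.

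Neuronal genes silenced by REST kept sites at a larger share of members than all genes did. Of 43 genes, 8 kept a site (18.6%, beside 2.55% of all genes), and 9 of their 27 basal sites were kept (33.3%, beside 12.4%). At equal length 7 genes kept one (16.3%, beside 1.65%). The ratio of overexpressed to basal sites was 1.56, or 0.667 with equal length and 1.79 within 100 kb. The 8 were CACNA1H, CELSR3, CPLX1, GLRA1, L1CAM, NPAS4, SNAP25 and SYT7. Of the 9 kept basal sites, 6 held an RE1-like sequence, none held CAAGGTCA and 2 overlapped a Perseus peak. L1CAM, a neural adhesion molecule, kept an intronic site of ranks 12 and 41, CELSR3 one of ranks 27 and 98, and GLRA1, a glycine receptor subunit, one at 62 bp of ranks 28 and 95. None of the 18 lost sites of the group held an RE1-like sequence, while 3 of the 34 gained ones did, including a site at the TSS of CHRNB2 with rank 148. The list was drawn up with the RE1 result known, so that its count describes the same sites again.

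Genes for synaptic adhesion kept no site. The 35 genes stand far from others, with a median of 1503 kb nearest to each TSS compared with 59.3 kb for all genes. All but 3 of them had a site, and the numbers were 78 basal and 77 overexpressed, a ratio of 0.987 that became 0.308 with equal length and 1.2 within 100 kb, from 10 and 12 sites. ROBO1, an axon guidance receptor, lost 9 sites and gained 3, NEGR1 and ROBO2 lost 6 each and gained none, and LSAMP lost 6 and gained 5. CAAGGTCA was in 2 of the 78 lost and 1 of the 77 gained sites, and 3 of each overlapped a Perseus peak.

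Gene families grouped by name fell along the same range. At equal length the ratio of overexpressed to basal sites was 0.316 for 414 olfactory receptor genes, 0.579 for 85 potassium channel genes, 0.58 for 89 cadherin and protocadherin genes and 0.66 for 51 semaphorin, plexin, ephrin and Eph receptor genes. It was 1.04 for 508 zinc finger (ZNF) genes, 1.29 for 369 solute carrier genes, 1.69 for 44 collagen genes, 2.6 for 29 Wnt ligand and Frizzled genes and 6.5 for 43 proteasome subunit genes, the last from 2 basal and 13 overexpressed sites. Within 100 kb the background ratio was 3.39. Olfactory receptor (1.75), potassium channel (2.77) and semaphorin to Eph receptor genes (2.58) lay below it. Cadherin and protocadherin genes moved above it, at 5.33 from 3 and 16 sites. Above it were also ZNF (3.82), solute carrier (4.33), collagen (4.8), Wnt and Frizzled (7.67) and proteasome genes (7.5). Housekeeping genes, 36 in number, went from 7 to 23 sites and kept one at ATP5F1B and at TFRC. Site numbers in most of these lists are small, and the part of base composition in their ratios was not tested.

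**Figure D5:**
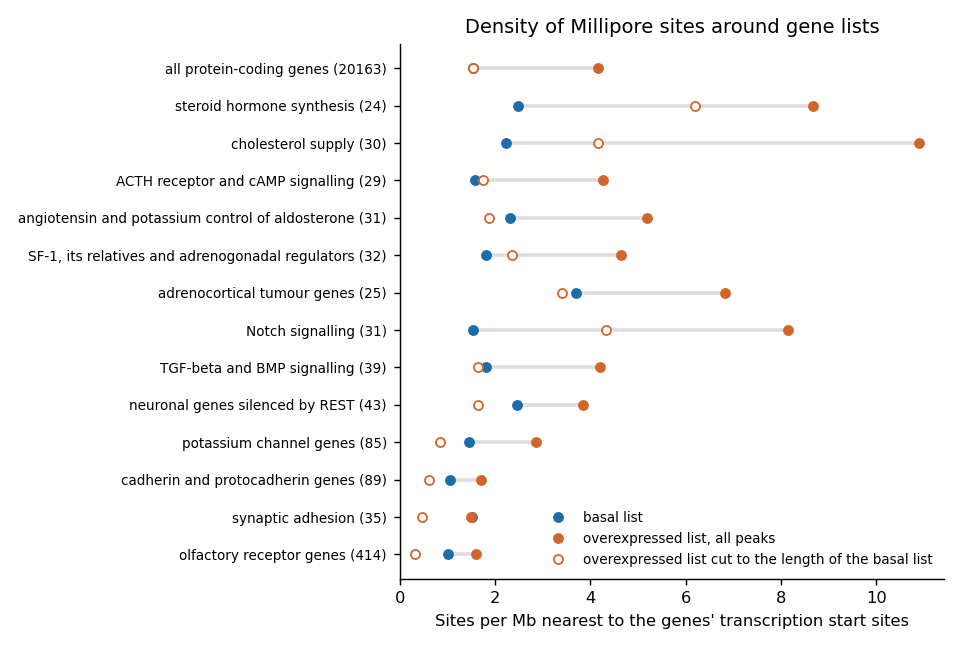
Millipore sites per Mb of the stretch nearest to the genes' starts (horizontal axis) for all protein-coding genes and 13 gene lists, with the number of genes in brackets. Filled points are the basal list (blue) and all overexpressed peaks (orange), and open points are the overexpressed list cut to the length of the basal list, which lies above the basal value for steroid synthesis (6.19 against 2.48) and below it for synaptic adhesion (0.464 against 1.51).

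The genes with the most changes were named by count alone. Most sites were gained at TNS3 (21), VAV2 (16), IGLL1 (15) and HS6ST1 (14), followed by 13 each at ENSG00000289710, IER5L, MYC, NTMT1 and SLC6A6. The VAV2 sites, with no basal site among them, spread from -15224 to 118051 bp of the TSS and had ranks from 102 to 11654. TNS3, a focal adhesion protein, also kept 2 basal sites and lost 7, going from 9 to 23 sites in all. The largest losses were at FLRT2 and ROBO1 with 9 sites each and at EPHA6 and MCTP2 with 8, and each of these had 3 or 4 overexpressed sites elsewhere. POT1, a telomere protein, lost all 7 of its sites and gained none. No gene kept more than 3 sites, a number reached at TPTE and ZNF337. Because genes in gene-poor regions collect peaks over long distances, these counts depend on the assignment without a distance limit.

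The gain differed between chromosomes. On chromosome 19 the density rose from 3.31 to 14.3 sites per Mb, a ratio of 4.31, on chromosome 22 the ratio was 4.14 and on chromosome 17 it was 4.08, whereas it was 1.93 on chromosome 6, 2.01 on chromosome 18 and 2.02 on chromosome 5. The kept share of basal sites was 23.8% on chromosome 19 and 23.5% on chromosome 17, compared with 6.35% on chromosome 5 and 5.62% on chromosome 13. Equal-length lists gave chromosomes 9, 17, 19 and 22 ratios of 1.53 to 1.56 and chromosome 6 a ratio of 0.584. Chromosome 9, with 2.74 basal and 9.08 overexpressed sites per Mb, was dense at both dosages.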

How the data were processed

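Chromatin was precipitated with the Millipore antibody in 3 libraries without and 3 with doxycycline, which the authors pooled by dosage. According to the study's methods, reads were aligned to hg19 with ELAND and peaks were called against input chromatin with the SeqPeak function of CisGenome, and the submitters' processing notes name CASAVA 1.6. The authors deposited 1 peak list a pool, with positions and, as a score, a rank from the best peak down. The quantity ranked is not given in the sources used here, nor is the read depth, and the 2 input libraries were not analysed here.

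Peaks were compared by overlap of 1 bp or more and assigned to the nearest of 20163 protein-coding genes on 24 chromosomes (GENCODE v44lift37 annotation on GRCh37). Motifs were searched on both strands of the reference, in the peaks and in windows of equal width 5 kb to each side. The TSS with the most upstream position in a gene served as its start. Shares carry 95% Wilson intervals. Python 3.11.15, numpy 2.4.6, scipy 1.17.1, pysam 0.24.0 and matplotlib 3.10.9 were used. On simulated data all 300 planted overlaps, 500 distances and 200 copies of each motif were recovered.

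The text names the 8 best-ranked kept, gained and lost sites within 100 kb of a TSS, the genes with the most sites, and members of 38 gene lists, 17 by symbol and 21 by name pattern. Some of these sites, genes and lists are not reported here. The comparison, the lists and the genes were chosen with earlier results of these data known. The divisions by GC content, rank, distance and Perseus dosage were chosen after seeing the data. Alternatives changed the overlap, the list length, the assignment and the motif letters.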

Additional observations from a re-analysis of the deposited data

How the results depend on the processing

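No paired analysis was possible because each dosage is 1 pooled list, and no replicate could be left out for the same reason. Kept sites exceeded lost and gained sites in the SF-1 sequence under each alternative of overlap, list length and motif letters. Among the 100 best-ranked sites of each class they did not exceed lost sites, with 28 kept and 33 lost sites holding it. The number of kept basal sites was 352 in lists of equal length and 298 in the better-ranked 50% of each list. Peaks within 1 Mb of a long run of unknown bases were 2.02% of kept basal and 0.65% of lost peaks. Without such peaks 533 basal sites were kept (12.2%). The percentage kept was 11.2 when 50% of the narrower peak had to overlap, 14.2 when a gap of 500 bp was allowed, 8.01 at equal length and 13.6 in the better-ranked 50%. Genes that kept a site numbered 332 at equal length, 287 in the better-ranked 50%, 161 with assignment within 10 kb and 217 when genes of every kind could be nearest. Genes with both kinds of site and no overlap numbered 835, 622, 113 and 289 under these settings, and 786 within 100 kb. Genes with overexpressed sites only numbered 2027 at equal length, 2716 within 10 kb and 3141 with genes of every kind, and those with basal sites only 1969, 419 and 645. The excess of the SF-1 sequence at kept over lost sites was 8.77 points with a leading T and 33.1 with 1 base left free, and over gained sites 11.1 and 34.7 points. With every transcript start, the excess within 1 kb was 13.1 points for kept over lost and 14.2 for gained over lost. The lower share at gained than at lost sites reversed to 3.62 points (1.91 to 5.32) with CAAGGNCA in lists of equal length, an alternative chosen after seeing the data. It was -2.53 points (-3.76 to -1.31) for CAAGGTCA and -0.0368 (-1.46 to 1.39) without the leading C at equal length, and with all peaks -2.46 without the leading C and -0.505 (-1.85 to 0.794) with CAAGGNCA. The ratio of overexpressed to basal sites over all genes was 1 at equal length, by construction, and 3.39 within 100 kb. Ratios of some lists crossed 1, among them at equal length aldosterone control (0.812), TGF-beta and BMP (0.917) and REST genes (0.667), and within 100 kb for synaptic adhesion (1.2). The background moved as well, from 2.71 with all peaks, and in the settings named these lists stayed below it. The cause of the other shifts was not tested. Without replicate lists or read depth, a site absent from a list cannot be told apart from one just below its limit of detection.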
